A study of Homo sapiens with 24 samples.

Results

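Antisense long noncoding RNAs were taken as the rows of the count table whose Ensembl identifier maps to a symbol ending in -AS and a digit, and whose CPM (the count divided by the library's total, scaled to a fixed total) averaged at least 1 over the 12 libraries of a cell line. Of 39321 rows, 1550 carried such a symbol and 712 met the rule. In the libraries labelled A498 612 met it, in those labelled 786-O 646, and in both 546. They were thus chosen by their measured level over all groups of a line, so levels are given as a description and not tested. Just inside the limit in A498 were ITGA2-AS1 at 1.03 CPM, KIAA1614-AS1 at 1.04 CPM and SEMA6A-AS2 at 1.05 CPM, and just outside it SNAP25-AS1 at 0.992 CPM, PLCE1-AS1 at 0.988 CPM and USP6NL-AS1 at 0.987 CPM. In 786-O the limit lay between GLYCTK-AS1 and FBXW7-AS1, both at 1.00 CPM, with MAP3K4-AS1 at 1.01 CPM, and on the other side ERCC8-AS1 at 0.998 CPM and ASAH1-AS1 at 0.989 CPM. A mean over groups can hide a low group: 65 of the 612 in A498 and 64 of the 646 in 786-O had at least 1 group whose mean lay under the limit.

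An antisense RNA is transcribed from the strand opposite to the gene it is named after, here called the sense gene. Some overlap exons of that gene, some lie in its introns, and some start close to its promoter and run the other way. A few are known to act on the transcription or the mRNA of their neighbour, while most have no described function. IFNγ signals through the JAK-STAT pathway to GAS elements in promoters, and through IRF1 and the ISGF3 complex to ISRE elements, and it raises antigen presentation genes and CD274, the gene of PD-L1.

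The cells were A498 and 786-O, both established human clear cell renal cell carcinoma lines. In each line cells were transfected with a non-targeting siRNA pool (Cnsi) or a pool against PD-L1 (PD-L1si) at 20 nM for 24 h and then held for another 24 h with 50 ng/mL IFNγ or without it. This gave 4 groups of 3 libraries a line (Cnsi, Cnsi IFNγ, PD-L1si, PD-L1si IFNγ) and 24 libraries in all. The sample labels call the PD-L1si groups knockouts, whereas the protocol describes a transient siRNA. Nothing in the labels says that replicates came from separate cultures, so p-values measure the spread between these libraries, which may be technical. The lines were sequenced on different instruments (a NovaSeq for A498 and a NextSeq for 786-O), and line and instrument cannot be told apart.

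Total counts ran from 19256316 to 27907526 in A498 and from 26807875 to 30350461 in 786-O. CD274 checked the siRNA labels: under IFNγ it stood at 174, 184 and 175 CPM with Cnsi and at 26.5, 28.0 and 27.3 CPM with PD-L1si in A498, and at 53.7, 56.0 and 62.2 CPM against 31.6, 29.5 and 29.2 CPM in 786-O. Of 12 kidney and clear cell carcinoma markers, 12 reached 1 CPM in A498 and 9 in 786-O. Leukocyte markers summed to at most 0.602 CPM in A498 and 2.35 CPM in 786-O, and endothelial and fibroblast markers to at most 0.818 and 1.69 CPM. In 786-O 1475 genes with over 1000 counts in A498 were listed at 0 in all 12 libraries, ACTB among them, and the reverse held for 35 genes. Of the 712 antisense RNAs, 9 were listed at 0 in 786-O and 2 in A498, as were the sense genes of 106 and 4, so for these pairs one side has no value.

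Reads on shared exon bases set how the values can be read. In the annotation, 597 of the 712 shared exon bases with their sense gene, 75 overlapped its span only, 21 started within 1000 bases of its start without overlap, and 7 lay farther apart. Over exons of any gene on the other strand, 643 had some exon bases, 106 had at least 50% and 69 had none, with a median of 15.2%. The kit was stranded and the counting was set to use strand. Yet MT-ND6, the mitochondrial protein gene of the minus strand, had a median of 22.3 reads per base beside 22.9 for MT-ND5 and 21.3 for MT-CYB of the plus strand in A498, and 49.1 beside 51.2 and 80.1 in 786-O. The 20 antisense RNAs whose exons lay almost wholly (at least 99%) over exons of the other strand had a median of 1.69 times the reads per base of the sense gene in A498 and 1.75 times (17 pairs) in 786-O. Where spans alone overlapped, the median ratio was 0.268 (73 pairs) and 0.272 (67 pairs). For exon-overlapping pairs, the reads of the antisense RNA and of the gene on the other strand cannot be told apart, and results for the pairs named are given beside the overlapping gene. Overlapping genes other than the sense gene, such as TAP1, ICAM1, SCN9A, ITGA1, IDI1, NREP and MED25, were picked after their values were seen. In bulk RNA, fewer cells that carry an RNA and less of it per cell cannot be told apart.

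The share of antisense symbols that met the level rule differed by overlap, given as a description only because the level chose the members. Of the 439 symbols with no exon base over the other strand 15.7% met it, of the 727 with up to 25% of their bases shared 54.6%, of the 221 with 25 to 50% shared 63.3%, of the 131 with 50 to 99% shared 65.6%, and of the 32 above that 62.5%. Median levels over all symbols went from 0.0147 CPM in the class with no overlap to between 0.826 and 1.69 CPM in the others in A498, and from 0.0261 CPM to between 0.978 and 3.06 CPM in 786-O. Medians over all rows annotated as long noncoding RNA, whatever the symbol, differed likewise. In A498 they were 0.0107 CPM with no overlap, 0.289 CPM up to 50%, 0.79 CPM up to 99% and 2.24 CPM above that. In 786-O they were 0.021, 0.408, 1.12 and 2.92 CPM, so the pattern was not particular to antisense symbols. As a measure of shared reads, the mean reads per base of the genes on the other strand were put on the shared bases. The expected reads came to at least 50% of the antisense RNA's own count for 264 of 612 in A498 and 223 of 646 in 786-O, and to under 10% for 112 and 195. In 786-O this measure is too low where the other gene is listed at 0.

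**Figure D1:**
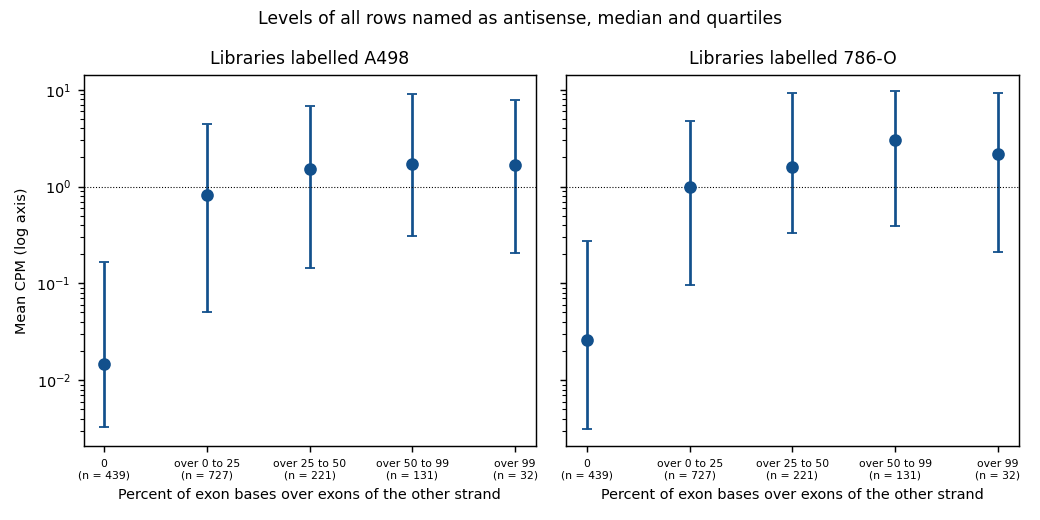
Mean CPM (log axis) of all 1550 rows with an antisense symbol, by the percent of their exon bases that lie over exons of the other strand, in each line; points are medians, bars run from the lower to the upper quartile, and the dotted line is the 1 CPM limit. The class with no shared base sits lowest in both lines, at 0.0147 and 0.0261 CPM.

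Promoter sequence is shown for 3 antisense RNAs that rose with IFNγ in both lines and hold an interferon motif near the RefSeq start. Each line gives 300 bases of GRCh38.p14, from 250 before to 50 after the RefSeq start, in the direction of the antisense RNA, with the motif matches in capitals. PSMB8-AS1 (chr6:32843836-32844135, plus strand) holds a core of the ISRE motif 44 bases before the start and a GAS motif (TTCNNNGAA) 18 bases after it. CYLD-AS1 (chr16:50742698-50742997, minus strand) holds an ISRE core 18 bases before the start, and MMP25-AS1 (chr16:3059321-3059620, minus strand) a GAS motif 169 bases before it.
PSMB8-AS1: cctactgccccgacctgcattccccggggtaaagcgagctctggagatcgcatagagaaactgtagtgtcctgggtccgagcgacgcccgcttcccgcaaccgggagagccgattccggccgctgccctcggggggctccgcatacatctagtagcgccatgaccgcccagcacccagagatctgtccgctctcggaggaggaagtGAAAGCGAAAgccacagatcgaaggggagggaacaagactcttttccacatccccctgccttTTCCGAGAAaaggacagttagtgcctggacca
CYLD-AS1: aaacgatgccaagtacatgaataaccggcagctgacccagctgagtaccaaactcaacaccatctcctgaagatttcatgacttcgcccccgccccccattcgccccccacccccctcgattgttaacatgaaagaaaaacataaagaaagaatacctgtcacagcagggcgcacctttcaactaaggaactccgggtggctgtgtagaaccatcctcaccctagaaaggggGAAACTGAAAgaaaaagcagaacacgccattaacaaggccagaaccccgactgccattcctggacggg
MMP25-AS1: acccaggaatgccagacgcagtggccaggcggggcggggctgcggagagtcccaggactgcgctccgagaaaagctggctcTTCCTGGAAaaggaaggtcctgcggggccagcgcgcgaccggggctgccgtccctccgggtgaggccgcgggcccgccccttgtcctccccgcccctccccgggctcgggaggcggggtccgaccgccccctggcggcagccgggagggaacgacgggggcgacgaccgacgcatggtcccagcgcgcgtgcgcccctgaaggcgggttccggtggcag

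The PSMB8-AS1 motifs are shared with its neighbour, since the same bases fall in a promoter window of PSMB8 on the minus strand (chr6:32843998-32844297), 4 bases before its start for the ISRE core and 65 before for the GAS motif. A RefSeq window was found for 505 of the 712 antisense RNAs. Searched on both strands, the GAS motif was in a window of 42 of the 505 antisense RNAs (8.32%), and the ISRE core in a window of 22 (4.36%). Of all 35116 windows, 7.66% held the GAS motif and 3.57% the ISRE core. The first shares are per RNA, counted if any of its windows held the motif, and the second per window, so they are unlike measures. Among antisense RNAs with a window that were past the threshold upward in both lines with IFNγ, 7 of 45 held a GAS motif and 6 an ISRE core. Among those downward in both, 3 of 18 held each. A match here is a run of letters and says nothing of binding.

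By total reads the highest antisense RNAs were VIM-AS1, TUBA1B-AS1, RPL30-AS1, ICAM4-AS1 and MIF-AS1 in A498, at 1183, 885, 465, 337 and 287 CPM. In 786-O TUBA1B-AS1 led at 1264 CPM, ahead of VIM-AS1 at 624, RPL30-AS1 at 478, MIF-AS1 at 444 and AFAP1-AS1 at 428 CPM. CPM does not correct for length. Per base, VIM-AS1 had 161 reads in the 12 A498 libraries together and VIM, the intermediate filament gene, 209.6, and 30.9% of the exon bases of VIM-AS1 lay over VIM exons. TUBA1B-AS1, named after an alpha tubulin gene, fell with IFNγ in A498 from 1296, 1122 and 1396 CPM to 633, 554 and 515 CPM (log2 fold change -1.02), and its 786-O value was 0.07. AFAP1-AS1, an RNA often described in carcinomas, rose in A498 from 20.3, 21.5 and 20.5 CPM to 39.0, 41.3 and 43.2 CPM (1.12). In 786-O it already stood between 431 and 434 CPM without IFNγ, and the log2 fold change was 0.10.

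The effect of IFNγ in cells with Cnsi was tested first. A gene was called past the threshold with an adjusted p under 0.05 and a log2 fold change beyond 0.5 in either direction (edgeR's quasi-likelihood test over all genes, Benjamini-Hochberg). In A498, 279 of the 702 antisense RNAs tested were past it, 149 upward and 130 downward, or 39.7%, beside 36.8% of all genes tested and 39.8% of genes with a mean of at least 1 CPM. In 786-O it was 143 of 691, 90 upward and 53 downward, or 20.7%, beside 18.5% and 20% of genes. The shares were near those of genes in general. The counts include RNAs that met the level rule only through the groups where they were high. Of those meeting it, 22 of 612 in A498 and 18 of 646 in 786-O had a Cnsi mean without IFNγ under 1 CPM. For 31 and 42 it was the Cnsi mean with IFNγ. For such RNAs the rule itself favoured a change in that direction. Over all genes tested, 18.2% were upward and 18.5% downward in A498, and 11.1% and 7.39% in 786-O. The median log2 fold change of the antisense RNAs was 0.0067 in A498 and -0.0016 in 786-O. Both lines were past the threshold for 90 of 681, with 58 up in both, 24 down in both and 8 in opposite directions. The share of all genes past it in both lines was not counted, here or in the comparisons below. Such counts therefore describe the members and show nothing particular to antisense RNAs.

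IRF1-AS1 (chr5:132410636-132488702, plus strand) was among the antisense RNAs with the largest rises in both lines. It is named after IRF1, the transcription factor that carries much of the IFNγ response. IRF1-AS1 went from 14.2, 14.6 and 15.4 CPM to 254, 269 and 246 CPM in A498 (log2 fold change 4.26, SE 0.0572, adjusted p 1.41e-36) and from 7.51, 7.57 and 9.13 CPM to 158, 174 and 166 CPM in 786-O (4.50, SE 0.0712, adjusted p 1.14e-25). The groups were far apart in both lines. IRF1 itself rose from between 56.9 and 61.6 CPM to between 1308 and 1363 CPM in A498 (4.62) and from between 39.5 and 41.0 CPM to between 944 and 1038 CPM in 786-O (4.77). IRF1-AS1 has 28.8% of its exon bases over IRF1 exons, and IRF1's reads per base would put 117% and 133% of its own count on them in A498 and 786-O.

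PSMB8-AS1 (chr6:32844078-32846500, plus strand) lies in the class II region of the major histocompatibility complex, between the immunoproteasome gene PSMB8 and the peptide transporter gene TAP1. It went from 30.2, 31.4 and 32.9 CPM to 391, 438 and 409 CPM in A498 (3.85, SE 0.0497, adjusted p 4.7e-37) and from 28.6, 30.1 and 29.8 CPM to 201, 229 and 233 CPM in 786-O (3.04, SE 0.0629, adjusted p 3.01e-23). PSMB8 rose from 77.0, 79.0 and 77.6 CPM to between 347 and 363 CPM in A498 (2.34) and was listed at 0 in 786-O. TAP1, which covers 27.7% of the exon bases of PSMB8-AS1 against 24.9% for PSMB8, rose by 4.14 in A498 and 3.49 in 786-O on the log2 scale. The change of PSMB8-AS1 thus lay between those of its neighbours in A498.

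HLA-DQB1-AS1 (chr6:32659880-32660729, plus strand) is named after the gene of an MHC class II beta chain. No read fell on it in the Cnsi libraries of A498, and with IFNγ it stood at 12.7, 12.1 and 11.0 CPM, which is at least 298-fold higher against a floor of 3 counts over the group. In 786-O it went from 0.0331, 0.0373 and 0.107 CPM to 1.38, 1.39 and 1.75 CPM (4.70, SE 0.433, adjusted p 1.57e-09). HLA-DQB1 likewise had no read without IFNγ in A498 and 71.1, 68.0 and 67.1 CPM with it, and it went from at most 0.112 CPM to between 6.43 and 6.70 CPM in 786-O. Both lines moved the same way for the antisense RNA and the class II gene, and 43.7% of the exon bases of HLA-DQB1-AS1 lie over exons of the other strand. In A498 HLA-DQB1-AS1 met the level rule only through the groups with IFNγ, so its rise is given as a description. C4B-AS1 (chr6:32032713-32036258, minus strand), in the complement C4 cluster of near-identical copies, had 0 counts without and 16 counts with IFNγ in A498, at least 5.18-fold higher. Its 786-O counts were uneven, 2, 1 and 58 without IFNγ and 185, 4 and 11 with it, and its values are uncertain because reads can be split between the copies.

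USP30-AS1 (chr12:109052344-109053986, minus strand) rose where its sense gene did not. It went from 0.363, 0.482 and 0.689 CPM to 4.45, 4.66 and 4.85 CPM in A498 (3.31, SE 0.195, adjusted p 5.13e-17) and from 0.529, 0.522 and 0.788 CPM to 6.84, 6.36 and 5.17 CPM in 786-O (3.45, SE 0.177, adjusted p 1.38e-14). USP30, a mitochondrial deubiquitinase, had 13.1, 14.6 and 12.6 CPM without and 9.04, 11.4 and 9.66 CPM with IFNγ in A498 (-0.28, not past the threshold), and its 786-O log2 fold change was -0.34, also not past it. USP30-AS1 has 39.8% of its exon bases over USP30 exons, and USP30 would account for 26% and 27% of its count. Its Cnsi libraries without IFNγ all lay under 1 CPM in both lines, so it met the level rule through other groups.

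TRIM31-AS1 (chr6:30105240-30114724, plus strand), opposite an E3 ubiquitin ligase gene, rose from 0.242, 0.0402 and 0.284 CPM to 2.41, 2.58 and 1.85 CPM in A498 (3.72, SE 0.301, adjusted p 3.26e-13) and from 0.430, 0.112 and 0.501 CPM to 1.97, 1.81 and 2.05 CPM in 786-O (2.58, SE 0.282, adjusted p 3.57e-08). In both lines TRIM31-AS1 met the level rule only through the groups with IFNγ, so its rise is given as a description. TRIM31 rose by 3.65 and 4.14 on the log2 scale. TNFRSF14-AS1 (chr1:2549920-2557031, minus strand), opposite the gene of the HVEM receptor, rose from 1.69, 2.05 and 2.23 CPM to 8.20, 8.31 and 9.53 CPM in A498 (2.26) and from 0.0661, 0.112 and 0.0358 CPM to 0.967, 1.18 and 1.04 CPM in 786-O (3.96, SE 0.425, adjusted p 2.47e-08). TNFRSF14 had log2 fold changes of 2.63 and 6.83. For both RNAs the sense gene moved the same way in both lines, and the reads that TNFRSF14 would put on the shared bases of TNFRSF14-AS1 came to 120% and 219% of its count.

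ICAM4-AS1 (chr19:10285801-10289019, minus strand) was one of the most abundant of the raised RNAs. It went from 144, 146 and 152 CPM to 718, 717 and 689 CPM in A498 (2.40, SE 0.0426) and from 44.1, 41.6 and 45.5 CPM to 227, 248 and 241 CPM in 786-O (2.58, SE 0.0562). ICAM4, a red cell adhesion molecule, averaged only 0.21 CPM in A498 and 1.72 CPM in 786-O. ICAM4 was past the threshold upward in A498, a call lost without Cnsi replicate 2 (0.98) or Cnsi IFNγ replicate 3 (1.34). The gene with most expected reads on ICAM4-AS1 was ICAM1, the leukocyte adhesion receptor, whose exons cover 25.3% of it. ICAM1 went from 641, 679 and 703 CPM to between 2814 and 2965 CPM in A498 (2.24) and from 191, 185 and 194 CPM to between 972 and 1064 CPM in 786-O (2.57). Expected shared reads came to 99.7% and 105% of the count of ICAM4-AS1, and the sense gene of its name contributes few of them.

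MMP25-AS1 (chr16:3037400-3059370, minus strand), opposite a membrane matrix metalloproteinase gene, rose from 9.15, 9.00 and 10.0 CPM to 71.4, 63.1 and 72.5 CPM in A498 (3.02) and from 18.5, 19.7 and 12.2 CPM to 59.9, 48.1 and 65.0 CPM in 786-O (1.91). MMP25 rose by 2.86 and 2.06 on the log2 scale. Expected shared reads were 11.1% and 12.5% of the count of MMP25-AS1, and the source of its other reads was not tested. CYLD-AS1 (chr16:50727417-50742815, minus strand), named after a deubiquitinase of the NF-κB pathway, rose from 0.443, 0.562 and 0.527 CPM to 4.41, 3.05 and 3.18 CPM in A498 (2.92) and from 0.893, 0.410 and 1.07 CPM to 3.39, 3.61 and 3.09 CPM in 786-O (2.20). CYLD rose by 2.18 in A498 and was listed at 0 in 786-O. SCN1A-AS1 (chr2:165957188-166390771, plus strand) rose from 5.12, 6.18 and 5.03 CPM to 15.5, 15.6 and 16.2 CPM in A498 (1.67) and from 0.165, 0.0746 and 0.107 CPM to 1.93, 1.91 and 2.27 CPM in 786-O (4.19, SE 0.317, adjusted p 3.72e-11). SCN1A, a sodium channel gene, had at most 0.121 CPM in the Cnsi libraries of A498, while SCN9A, another sodium channel gene under this long RNA, had a log2 fold change of 1.80 there. RFX5-AS1 (2.39 and 2.35), beside a class II promoter factor gene, and SLC8A1-AS1 (2.48 and 1.92), opposite a sodium-calcium exchanger gene, complete the antisense RNAs with the greatest mean change in both lines.

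**Figure D2:**
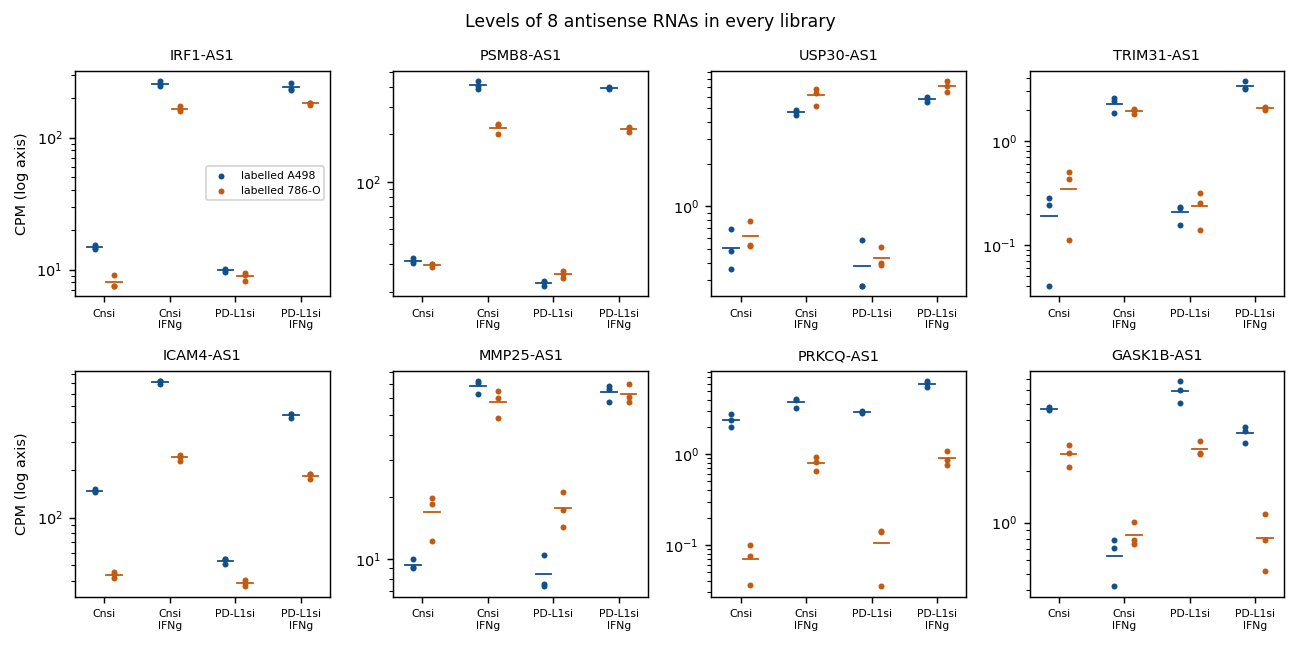
CPM (log axis) of 8 antisense RNAs in every library of the 4 groups; blue points are libraries labelled A498, orange points those labelled 786-O, and short lines are means of 3. IRF1-AS1, PSMB8-AS1, USP30-AS1, TRIM31-AS1, ICAM4-AS1, MMP25-AS1 and PRKCQ-AS1 sit higher with IFNγ in both lines, and GASK1B-AS1 sits lower, least so in the A498 libraries with PD-L1si.

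Among antisense RNAs that fell with IFNγ, SCTR-AS1 (chr2:119476428-119487346, plus strand) had the largest fall in A498, from 1.69, 1.37 and 1.22 CPM to 0.115, 0.179 and 0.0883 CPM (-3.26, SE 0.361, adjusted p 7.15e-10). In 786-O it went from 3.24, 2.39 and 2.97 CPM to 1.17, 0.660 and 0.856 CPM (-1.54, SE 0.197, adjusted p 4.66e-07). It shares no exon base with the secretin receptor gene SCTR, which had between 0.365 and 0.683 CPM without and no read with IFNγ in A498. SCTR-AS1 shares no exon base with the other strand but overlaps the span of SCTR. Whether its fall was separate from that of SCTR was not tested. In 786-O SCTR-AS1 met the level rule only through the groups without IFNγ (means of 2.87 and 3.39 CPM, against 0.897 and 0.917 CPM with it). Its fall there is therefore given as a description.

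GASK1B-AS1 (chr4:158170752-158202877, plus strand) fell from 4.63, 4.78 and 4.66 CPM to 0.422, 0.788 and 0.706 CPM in A498 (-2.73, SE 0.192, adjusted p 7.35e-15) and from 2.58, 2.13 and 2.86 CPM to 0.795, 1.01 and 0.745 CPM in 786-O (-1.43, SE 0.221, adjusted p 7.65e-06). GASK1B fell with it, by 2.44 and 1.38 on the log2 scale, and expected shared reads were 59.6% and 44.2% of the count of GASK1B-AS1. VCAN-AS1 (chr5:83531352-83581320, minus strand), opposite the versican gene of the extracellular matrix, fell from 87.4, 91.6 and 88.8 CPM to 17.0, 19.3 and 17.6 CPM in A498 (-2.17, SE 0.0612, adjusted p 1.52e-26), beside -2.11 for VCAN, and its 786-O log2 fold change of -0.32 was not past the threshold. SEMA6A-AS1 (chr5:116447547-116508276, plus strand), opposite a semaphorin gene, fell from 14.2, 14.0 and 16.2 CPM to 2.53, 3.55 and 3.88 CPM in A498 (-2.02, SE 0.11, adjusted p 5.21e-18), beside -2.31 for SEMA6A. In these 3 loci the antisense RNA and the sense gene fell by a similar amount in A498.

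In 786-O NCAM1-AS1 and PLCE1-AS1 had the largest falls, followed by SCTR-AS1, PHKA2-AS1 and GASK1B-AS1. NCAM1-AS1 (chr11:113265137-113274032, minus strand), opposite a neural cell adhesion gene, went from 1.49, 1.68 and 1.72 CPM to 0.484, 0.348 and 0.261 CPM (-2.01, SE 0.269, adjusted p 9.69e-07) beside -1.74 for NCAM1. PLCE1-AS1 (chr10:94278681-94287478, minus strand), opposite a phospholipase C gene, went from 1.72, 2.16 and 2.90 CPM to 0.484, 0.521 and 0.596 CPM (-1.94, SE 0.25, adjusted p 5.32e-07), with PLCE1 listed at 0. PHKA2-AS1 (chrX:18890296-18894974, plus strand), opposite the phosphorylase kinase subunit gene PHKA2 with 82.7% of its exon bases over exons of the other strand, went from 15.8, 14.1 and 13.7 CPM to 4.73, 4.80 and 4.62 CPM (-1.49, SE 0.0981, adjusted p 2.32e-12), beside -1.45 for PHKA2. In A498 these RNAs also fell, by 1.10 for NCAM1-AS1, 1.54 for PLCE1-AS1 and 0.92 for PHKA2-AS1 on the log2 scale.

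Across pairs, the change of the antisense RNA with IFNγ followed that of the sense gene most closely where exons were shared. Pearson's r between the log2 fold changes was 0.797 over 669 pairs in A498 and 0.784 over 565 pairs in 786-O, given as a description since pairs share libraries and reads. In A498 it was 0.941 for the 81 pairs with at least 50% of the antisense exon bases over sense exons, 0.838 for the 495 with fewer, and 0.509 for the 64 whose antisense RNA shared no exon base with any gene of the other strand. The 786-O values were 0.912 (65 pairs), 0.818 (422) and 0.5 (55). HLA-DQB1 and SCTR in A498 have a group with no read, so their fitted changes depend on the prior count and lie far from the other pairs. Spearman's rank correlation, which such points move less, was 0.66 over all pairs in A498 and 0.899, 0.688 and 0.361 in the same classes, and 0.671, 0.883, 0.694 and 0.455 in 786-O. Of the 272 antisense RNAs past the threshold in A498 with a tested sense gene, the sense gene was past it too for 185, in the same direction for 173 and the opposite for 12. In 786-O it was so for 70 of 111, with 69 in the same direction.

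**Figure D3:**
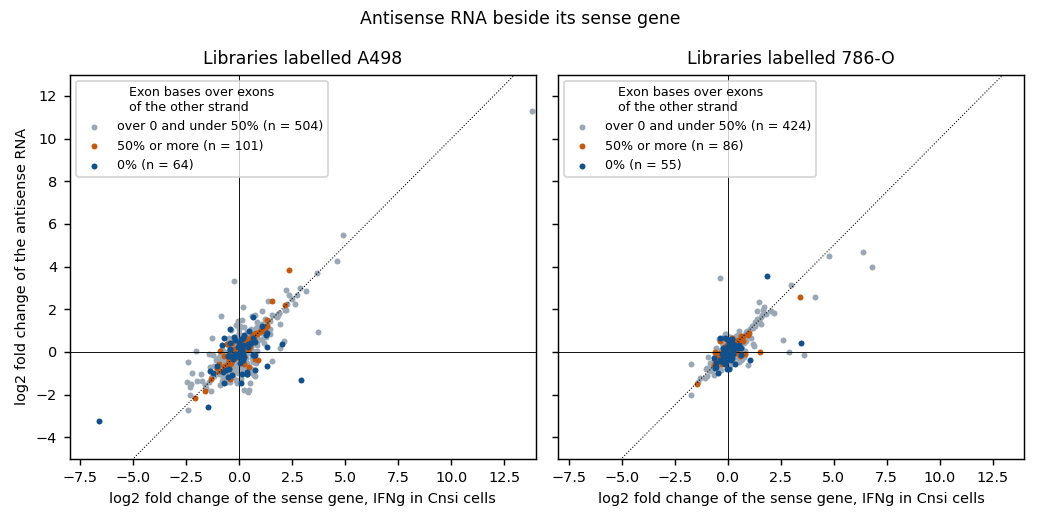
Log2 fold change with IFNγ in Cnsi cells of each antisense RNA (vertical) against its sense gene (horizontal) in each line; orange points have at least 50% of their exon bases over exons of the other strand, grey points fewer, blue points none, and the dotted line marks equal change. Orange points lie along the line of equal change and blue points scatter about it, and the A498 points farthest right and farthest left are HLA-DQB1 and SCTR, whose values depend on the prior count.

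The pairs past the threshold in opposite directions in A498 included ARHGAP5-AS1, IDI2-AS1 and LPP-AS2. ARHGAP5-AS1 fell from 1.49, 1.69 and 1.90 CPM to 0.690, 0.537 and 0.441 CPM (-1.45) while ARHGAP5, a GTPase activating protein gene, had 0.50. The call of ARHGAP5 was lost without Cnsi replicate 1 or Cnsi IFNγ replicate 2, at 0.48 for each. LPP-AS2 fell from 2.14, 2.69 and 2.15 CPM to 0.843, 1.04 and 1.10 CPM (-1.09) beside 0.68 for LPP, a focal adhesion gene. IDI2-AS1 fell from 7.82, 6.18 and 5.67 CPM to 2.76, 2.65 and 2.69 CPM (-1.14) beside 0.74 for IDI2. The other gene under IDI2-AS1, IDI1, an isoprenoid synthesis gene that covers 18.0% of its exon bases, fell by 1.02 on the log2 scale. Whether reads of IDI1 make up the fall of IDI2-AS1 was not tested. In 786-O the pair in opposite directions was PSMA3-AS1, which fell from 9.79, 9.96 and 7.63 CPM to 5.87, 5.25 and 4.95 CPM (-0.64), and PSMA3, a proteasome subunit gene, which rose by 0.98.

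The 69 antisense RNAs with no exon base over the other strand are those whose reads are least mixed with a neighbour's. With IFNγ in A498, 12 of 68 tested were past the threshold upward and 17 downward (17.6% and 25%, beside 18.2% and 18.5% of all genes tested). In 786-O it was 5 and 10 of 65 (7.69% and 15.4%, beside 11.1% and 7.39%). Both lines were past it upward for PRKCQ-AS1, GLIPR1-AS1, NAV2-AS6, ZNF516-AS1 and SCAMP1-AS1, and downward for 3, among them SCTR-AS1 and BNC2-AS1. Outside the span of every gene of the other strand lay 21 of the 69, and of these PRKCQ-AS1 and SCAMP1-AS1 were past the threshold upward in both lines.

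PRKCQ-AS1 (chr10:6580419-6616921, plus strand) starts within 1000 bases of PRKCQ, the gene of a protein kinase C isoform of T cell signalling, and runs away from it. It rose from 2.78, 2.37 and 1.99 CPM to 3.26, 4.01 and 3.97 CPM in A498 (0.79, SE 0.142, adjusted p 9.39e-06) and from 0.0992, 0.0746 and 0.0358 CPM to 0.656, 0.938 and 0.819 CPM in 786-O (3.56, SE 0.447, adjusted p 3.45e-07). PRKCQ was not past the threshold in A498 (0.23) and was in 786-O (1.88), where its call was lost with DESeq2 and without Cnsi replicate 1 or Cnsi IFNγ replicate 2. SCAMP1-AS1 (chr5:78342333-78360507, minus strand) rose from 2.18, 2.25 and 2.15 CPM to 3.72, 2.83 and 2.74 CPM in A498 (0.64) and from 3.93, 5.11 and 3.37 CPM to 6.22, 4.90 and 6.66 CPM in 786-O (0.65), where the groups overlapped. SCAMP1, a membrane trafficking gene, fell by 0.74 on the log2 scale in A498 and had -0.37 in 786-O, so the pair moved apart in A498. Without Cnsi IFNγ replicate 1 of A498, SCAMP1-AS1 was no longer past the threshold, at 0.49.

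GLIPR1-AS1, which overlaps the span of GLIPR1, rose by 0.96 in A498 and 0.62 in 786-O on the log2 scale, and the 786-O call was lost without Cnsi replicate 2 (0.45) or Cnsi IFNγ replicate 1 (0.49). NAV2-AS6 (chr11:19710934-19712619, minus strand) lies within the neuronal navigator gene NAV2 and went from 6.08, 7.19 and 7.50 CPM to 11.5, 11.4 and 12.0 CPM in A498 (0.89) and from 2.48, 2.01 and 3.15 CPM to 3.42, 3.89 and 4.28 CPM in 786-O (0.73). The groups of NAV2-AS6 did not overlap in either line. ZNF516-AS1 had 0.67 in each line, but its 786-O call was lost in 14 alternatives and its A498 call with DESeq2 and without Cnsi replicate 2 (0.47). BNC2-AS1 fell by 1.48 and 0.52 on the log2 scale, and its 786-O call was lost in 6 alternatives, with values down to -0.31.

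**Figure D4:**
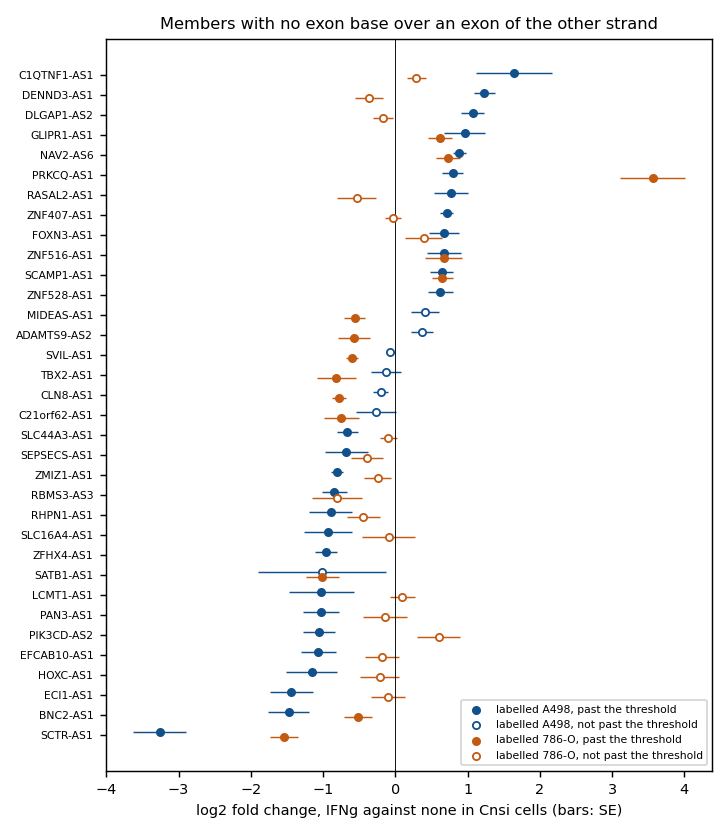
Log2 fold change with IFNγ in Cnsi cells of antisense RNAs with no exon base over the other strand that were past the threshold in at least 1 line and are reported here; blue is A498, orange 786-O, filled points are past the threshold, open points are not, and bars are SE. SCTR-AS1 lies farthest to the left in both lines, and PRKCQ-AS1 lies farthest to the right in 786-O.

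Groups of antisense RNAs, listed with earlier results of these data known, were counted in the same comparison. For this and the next lists, the shares over all genes tested were 18.2% upward and 18.5% downward in A498, and 11.1% and 7.39% in 786-O. Of 15 listed as opposite genes of antigen presentation and the interferon response, 9 were past the threshold upward and 1 downward in A498 (median log2 fold change 0.94). In 786-O 12 were upward and none downward (median 1.23). The list also holds RNAs named after genes of other functions, such as NUCB1-AS1 and RBM5-AS1. The A498 fall was APOBEC3B-AS1, opposite a cytidine deaminase gene, from 6.25, 6.18 and 5.15 CPM to 3.30, 2.72 and 2.87 CPM (-0.84), while in 786-O it rose from 8.50, 9.25 and 7.59 CPM to 17.5, 18.4 and 18.4 CPM (1.23). APOBEC3B moved the same way in each line (-1.04 and 1.16). Also upward in both lines were CFLAR-AS1 (1.55 and 0.70), opposite an apoptosis inhibitor gene, HLA-F-AS1 (0.94 and 0.54) and NUCB1-AS1 (0.61 and 0.92). The 786-O call of HLA-F-AS1 was lost without Cnsi replicate 3 (0.42) or Cnsi IFNγ replicate 3 (0.45).

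Of 8 antisense RNAs of the HOX clusters, which encode positional transcription factors, 1 was upward and 2 downward in A498 and 1 upward in 786-O. The upward one was HOXC-AS2, from 1.93, 2.17 and 1.86 CPM to 4.71, 4.62 and 5.16 CPM in A498 (1.41) and from 1.32, 1.53 and 0.967 CPM to 5.25, 4.48 and 5.62 CPM in 786-O (2.14). HOXA-AS2 (-0.87) and HOXC-AS1 (-1.16) were downward in A498, the latter not without Cnsi replicate 3 (-0.82). Of 27 opposite transcription factor genes, 7 were upward and 5 downward in A498 (median 0.0064), and 4 and 4 of 23 in 786-O (median -0.0028). MEF2C-AS1 rose by 1.46 and 2.25 and TFAP2A-AS1 by 1.52 and 0.59 on the log2 scale. The A498 call of MEF2C-AS1 was lost without Cnsi replicate 2 (1.17). The 786-O call of TFAP2A-AS1 was lost with DESeq2 (0.58), without Cnsi replicate 1 (0.66), 2 (0.49) or 3 (0.63) and without Cnsi IFNγ replicate 1 (0.56) or 3 (0.52). Of 25 widely described antisense RNAs, 6 were upward and 3 downward in A498 (median -0.029), and 5 and 2 of 24 in 786-O (median -0.077). VPS9D1-AS1 (0.85 and 1.62) and CBR3-AS1 (0.72 and 1.30) rose in both lines.

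With PD-L1si in place of Cnsi, IFNγ moved 263 of 702 in A498 past the threshold, 145 upward and 118 downward (37.5%, beside 33.5% of all genes tested, 17.6% upward and 15.9% downward, and 36.2% of those with a mean of at least 1 CPM), and 143 of 691 in 786-O, 82 upward and 61 downward (20.7%, beside 18.4%, 11% upward and 7.45% downward, and 19.7%). Both lines were past it for 81 of 681, 50 upward in both, 24 downward in both and 7 opposite. HLA-DQB1-AS1 had 0 counts with PD-L1si alone and 537 with IFNγ in A498, at least 208-fold higher, and 2 against 114 counts in 786-O, a ratio of 56.1 (95% counting interval 15.2 to 469). TNFRSF14-AS1 had 3 against 136 counts in 786-O, a ratio of 44.7 (15 to 219). USP30-AS1 rose by 4.04 and 4.16 on the log2 scale in A498 and 786-O. Among those downward in A498 were STAT4-AS1 (-2.93), opposite a STAT family gene, and HSPA12A-AS1 (-1.79). In 786-O CDH13-AS2 had 0 against 15 counts, at least 4.92-fold higher, and SEMA6A-AS2 12 against 1, a ratio of 0.0821 (0.00192 to 0.555). Of these 12 counts 9 came from 1 library, and the call of SEMA6A-AS2 was lost with DESeq2 and without PD-L1si IFNγ replicate 1 or 3. Intervals and floors cover counting error only.

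PD-L1si IFNγ libraries were next set against Cnsi IFNγ libraries, which asked what the PD-L1 siRNA pool did once IFNγ was present. With 1 pool, effects of PD-L1 loss and other effects of the pool cannot be told apart. In A498, 105 of 702 antisense RNAs were past the threshold, 50 upward and 55 downward (15%, beside 10.1% of all genes tested, 4.36% upward and 5.75% downward, and 11.2% of those with a mean of at least 1 CPM). In 786-O it was 23 of 691, 9 upward and 14 downward (3.33%, beside 3.03%, 1.29% upward and 1.74% downward, and 3.54%). Both lines were past it for 13 of 681, with 3 upward and 10 downward in both. In A498 the sense gene was also past the threshold for 40 of the 101 with a tested sense gene, each in the same direction, and it was not for 61. In 786-O it was for 7 of 18.

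GASK1B-AS1 had the largest rise in A498: from 0.422, 0.788 and 0.706 CPM under IFNγ with Cnsi it went to 3.48, 2.96 and 3.64 CPM with PD-L1si (2.29, SE 0.211, adjusted p 5.25e-11). GASK1B rose with it, from 2.87, 3.58 and 3.88 CPM to 13.7, 14.2 and 15.1 CPM (1.95). The Cnsi libraries without IFNγ stood at 4.63 to 4.78 CPM, and the PD-L1si libraries without IFNγ at 6.80, 6.04 and 5.06 CPM. IFNγ thus still lowered GASK1B-AS1 with PD-L1si, but less than with Cnsi. In 786-O the log2 fold change was -0.07, and the fall with IFNγ stood with either siRNA. IL21-AS1 (chr4:122618983-122689156, plus strand), beside the gene of the cytokine interleukin 21, went from 0.996, 1.61 and 1.24 CPM to 5.72, 4.73 and 5.13 CPM in A498 (1.91, SE 0.181, adjusted p 1.05e-10) and from 0.898, 1.22 and 0.707 CPM to 2.33, 2.27 and 2.07 CPM in 786-O (1.22, SE 0.236, adjusted p 0.000779). IL21 itself stayed at or under 0.623 CPM in A498 and 0.407 CPM in 786-O. At these low levels IL21 was past the threshold upward in 786-O under IFNγ, a call lost with DESeq2 (3.02 there). IL21-AS1 has 5.06% of its exon bases over IL21, and expected shared reads were 0.641% and 0.557% of its count.

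TTC21B-AS1 (chr2:165933857-165949891, plus strand), opposite a ciliary transport gene, rose in A498 from 4.94, 5.23 and 5.30 CPM to 12.6, 11.9 and 13.7 CPM (1.20, SE 0.096, adjusted p 1.46e-12), with 0.46 for TTC21B. ITGA2-AS1 (chr5:52930606-52990278, minus strand) rose from 0.230, 0.394 and 0.441 CPM to 0.946, 1.14 and 1.34 CPM (1.57, SE 0.291, adjusted p 4.12e-05). Its integrin sense gene ITGA2 had -0.02, and ITGA1, the integrin gene over which 57.1% of its exon bases lie, rose by 0.52. RTCA-AS1 (chr1:100251528-100266182, minus strand), named after an RNA cyclase gene, rose from 0.268, 0.322 and 0.353 CPM to 0.946, 0.571 and 0.910 CPM (1.27, SE 0.327, adjusted p 0.0022), with -0.42 for RTCA. In all 3 the groups did not overlap, but they were picked as the largest called rises, which favours this.

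SLCO4A1-AS1 (chr20:62663019-62666724, minus strand), opposite an organic anion transporter gene, fell in A498 from 65.1, 50.4 and 64.1 CPM to 22.0, 19.3 and 22.2 CPM (-1.60, SE 0.117, adjusted p 2.99e-07) and in 786-O from 2.73, 2.54 and 3.28 CPM to 1.55, 1.09 and 1.07 CPM (-1.22, SE 0.182, adjusted p 3.57e-05). SLCO4A1 fell from 337, 270 and 323 CPM to 102, 101 and 105 CPM in A498 (-1.70) and by 0.91 on the log2 scale in 786-O. TM4SF19-AS1 (chr3:196318330-196325570, plus strand), opposite a 4-pass membrane protein gene, fell from 6.86, 6.52 and 7.33 CPM to 2.58, 3.06 and 2.63 CPM in A498 (-1.43, SE 0.128, adjusted p 2.79e-11) and from 16.6, 17.4 and 19.9 CPM to 11.3, 11.2 and 11.5 CPM in 786-O (-0.68, SE 0.0874, adjusted p 4.81e-06). TM4SF19 fell by 1.29 in A498 and was listed at 0 in 786-O. Both antisense RNAs fell in both lines, and the smaller A498 than 786-O level of TM4SF19-AS1 was seen in every group.

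BMAL2-AS1 (chr12:27389789-27446625, minus strand), opposite a circadian transcription factor gene, fell in A498 from 6.71, 7.31 and 7.02 CPM to 3.14, 3.32 and 2.78 CPM (-1.29, SE 0.121, adjusted p 7.75e-11), beside -1.49 for BMAL2. IGFL2-AS1 (chr19:46189029-46203160, minus strand) fell from 1.03, 1.40 and 0.750 CPM to 0.473, 0.467 and 0.479 CPM (-1.28, SE 0.298, adjusted p 0.000758), and IGFL2 averaged 0.0038 CPM. C1QTNF1-AS1 (chr17:79018131-79027673, minus strand) went from 0.345, 0.287 and 0.441 CPM to 0.129, 0.104 and 0.0958 CPM (-1.73, SE 0.567, adjusted p 0.0159). That call was lost with DESeq2 (-1.80), without Cnsi IFNγ replicate 3 (-1.58) and without PD-L1si IFNγ replicate 3 (-1.64), while C1QTNF1 had -1.02.

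In 786-O SLC7A11-AS1 (chr4:138057464-138178177, plus strand), opposite the gene of the cystine-glutamate exchanger, fell under IFNγ from 8.57, 8.45 and 8.08 CPM to 3.03, 3.99 and 3.79 CPM (-1.22, SE 0.112, adjusted p 2.5e-08), as did SLC7A11 (-1.22). Without IFNγ SLC7A11-AS1 fell from 17.2, 16.9 and 16.3 CPM to 6.35, 8.01 and 6.82 CPM (-1.27), beside -1.16 for SLC7A11. CDC42EP3-AS1 (chr2:37562486-37646698, plus strand), opposite an effector gene of CDC42, fell from 0.967, 1.11 and 1.04 CPM to 0.555, 0.297 and 0.447 CPM (-1.28, SE 0.305, adjusted p 0.00482), beside -0.93 for CDC42EP3, and the call was lost with DESeq2 (-1.29). ZNF232-AS1 (chr17:5097223-5115004, plus strand) fell from 8.50, 4.83 and 5.70 CPM to 4.22, 3.46 and 3.65 CPM (-0.76, SE 0.157, adjusted p 0.0019), with -0.11 for the zinc finger gene ZNF232. All 3 had non-overlapping groups, but they were picked as the largest called falls, which favours this.

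The rises in 786-O were smaller. JMJD1C-AS1 (chr10:63465229-63466563, plus strand), opposite a Jumonji family gene, went from 0.518, 0.591 and 0.596 CPM to 1.26, 1.28 and 0.895 CPM (0.99, SE 0.248, adjusted p 0.00696), with -0.04 for JMJD1C. RHPN1-AS1 went from 1.52, 0.695 and 1.23 CPM to 2.41, 1.68 and 1.96 CPM (0.79, SE 0.218, adjusted p 0.0144). Its call was lost without Cnsi IFNγ replicate 2 (0.53) or PD-L1si IFNγ replicate 1 (0.66). MCCC1-AS1 (chr3:183016255-183017808, plus strand), opposite a leucine catabolism gene, went from 1.14, 0.973 and 0.819 CPM to 1.74, 1.35 and 1.65 CPM (0.67, SE 0.216, adjusted p 0.0382). The call of MCCC1-AS1 was lost with DESeq2 (0.67) and without Cnsi IFNγ replicate 2 (0.67) or 3 (0.56) or PD-L1si IFNγ replicate 1 (0.61) or 3 (0.63).

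Without IFNγ, PD-L1si moved 74 of 702 antisense RNAs past the threshold in A498, 28 upward and 46 downward (10.5%, beside 8.48% of all genes tested, 2.87% upward and 5.6% downward, and 9.23% of those with a mean of at least 1 CPM), and 21 of 691 in 786-O, 13 upward and 8 downward (3.04%, beside 2.81%, 1.19% upward and 1.63% downward, and 3.31%). Both lines were past it for 10, with 6 upward and 4 downward in both. In A498 the falls were led by SLCO4A1-AS1, from 40.1, 42.8 and 49.3 CPM to 12.0, 14.7 and 13.6 CPM (-1.83), TM4SF19-AS1 (-1.69), PLA2G4C-AS1 (-1.68) and ICAM4-AS1. ICAM4-AS1 went from 144, 146 and 152 CPM to 54.6, 54.8 and 51.0 CPM (-1.57, SE 0.0453, adjusted p 4.23e-24), and ICAM1 fell by the same 1.57 on the log2 scale, from 641, 679 and 703 CPM to 242, 254 and 234 CPM. PLA2G4C-AS1 had between 0.321 and 0.608 CPM against 0.0908 to 0.156 CPM, beside -1.54 for the phospholipase gene PLA2G4C, and its call was lost without Cnsi replicate 3 (-1.30).

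ZMIZ1-AS1 (chr10:78943328-79067895, minus strand) fell in A498 from 24.1, 25.9 and 26.0 CPM to 7.92, 8.49 and 11.2 CPM (-1.56, SE 0.0865, adjusted p 1.31e-16). It lies apart from ZMIZ1, a transcription coactivator gene with a log2 fold change of 0.26, and overlaps no gene of the other strand. In 786-O its value was -0.33. The rises in A498 included NR2F1-AS1, beside an orphan nuclear receptor gene, from 0.242, 0.482 and 0.770 CPM to 1.70, 1.09 and 1.21 CPM (1.32), with NR2F1 at 0.94. IL21-AS1 (1.28), ZFHX4-AS1 (1.18) and C1QTNF7-AS1 (0.93) rose too, as did UBE2D3-AS1 (1.20), for which expected shared reads from UBE2D3 came to 2581% of its own count while UBE2D3 had -0.06.

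In 786-O without IFNγ, HIF1A-AS1, opposite the gene of the hypoxia factor HIF1A, fell from 48.0, 45.6 and 48.1 CPM to 26.4, 27.8 and 30.0 CPM (-0.77), and HIF1A fell by 0.72 on the log2 scale. DYRK3-AS1 (-0.75, with -0.01 for DYRK3), VSIG10L-AS1 (-0.73, with -0.63 for VSIG10L) and SLCO4A1-AS1 (-0.69) were also downward. The call of SLCO4A1-AS1 was lost without Cnsi replicate 1 (-0.60) or PD-L1si replicate 3 (-0.61), and that of DYRK3-AS1 with DESeq2 (-0.75) and without any of several libraries (up to -0.58). STARD4-AS1 rose from 25.6, 24.4 and 23.8 CPM to 41.3, 39.5 and 39.4 CPM (0.68), while the sterol transport gene STARD4 had -0.34. NREP, the other gene under STARD4-AS1 with 22.8% of its exon bases, rose by 0.67. IL21-AS1 (0.84), INTS6-AS1 (0.80, with 0.09 for INTS6), SEMA6A-AS1 (0.74) and WEE2-AS1 (0.68) were upward, and the call of SEMA6A-AS1 was lost in 14 alternatives. IL21-AS1 was not past the threshold without Cnsi replicate 1 (0.67) or PD-L1si replicate 3 (0.58), nor WEE2-AS1 without Cnsi replicate 3 (0.50) or PD-L1si replicate 2 (0.59).

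IL21-AS1, SLCO4A1-AS1, TM4SF19-AS1 and PTOV1-AS1 were past the threshold in each of the siRNA comparisons, with and without IFNγ in both lines. The comparisons with and without IFNγ share no library, but they share the siRNA pool and, within a line, the same edgeR fit. They are therefore not independent. The share of all genes past the threshold in every siRNA comparison was not counted, so these RNAs are given as a description. PTOV1-AS1 (chr19:49838639-49851676, minus strand) fell under IFNγ from 8.66, 9.21 and 8.69 CPM to 5.33, 5.14 and 5.03 CPM in A498 (-0.88) and from 14.1, 14.5 and 14.7 CPM to 9.99, 9.72 and 9.64 CPM in 786-O (-0.57). Without IFNγ it fell from 9.39, 10.4 and 11.7 CPM to 7.07, 6.90 and 6.50 CPM in A498 (-0.73) and from 16.3, 14.3 and 14.0 CPM to 9.46, 9.99 and 8.92 CPM in 786-O (-0.67). PTOV1 had log2 fold changes of 0.35, 0.05, 0.13 and 0.02 in the same order, and MED25, a Mediator gene that covers 34.2% of the exon bases of PTOV1-AS1, had -0.30 and -0.44 in A498 and was listed at 0 in 786-O. For SLCO4A1-AS1 and TM4SF19-AS1 the sense gene fell alongside where it was measured.

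**Figure D5:**
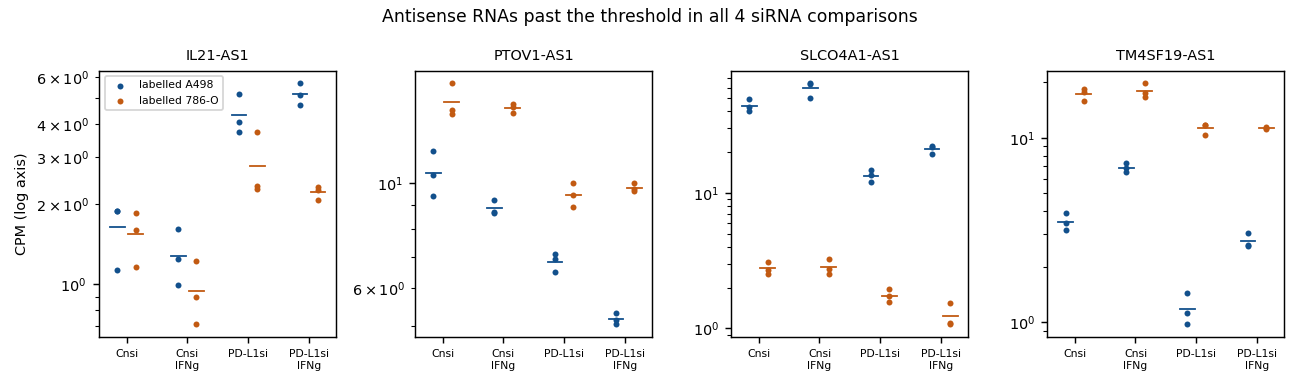
CPM (log axis) of IL21-AS1, PTOV1-AS1, SLCO4A1-AS1 and TM4SF19-AS1 in every library of the 4 groups; blue points are A498, orange points 786-O, and short lines are means of 3. IL21-AS1 sits higher and the others lower with PD-L1si, both with and without IFNγ.

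Among the 69 antisense RNAs with no exon base over the other strand, PD-L1si under IFNγ moved 6 of 68 tested upward and 3 downward in A498 (8.82% and 4.41%, beside 4.36% and 5.75% of all genes tested). In 786-O it moved 4 of 65 upward and 1 downward (6.15% and 1.54%, beside 1.29% and 1.74%). NAV2-AS6 went from 11.5, 11.4 and 12.0 CPM to 6.62, 7.17 and 6.23 CPM in A498 (-0.90) and had -1.17 there without IFNγ, beside -0.79 and -0.77 for NAV2. Its 786-O value under IFNγ was -0.59, and that call was lost without Cnsi IFNγ replicate 3 (-0.51), PD-L1si IFNγ replicate 1 (-0.50) or replicate 3 (-0.57). BCAN-AS1, which starts near the brevican gene BCAN, was upward in A498 under IFNγ (0.75) and without it (0.72). PRKCQ-AS1 rose in A498 from 3.26, 4.01 and 3.97 CPM to 6.15, 5.50 and 6.37 CPM (0.58), and without Cnsi IFNγ replicate 1 it had 0.49. SRRM2-AS1 was upward without IFNγ in both lines (0.92 and 0.61).

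The interaction asked whether the effect of IFNγ differed between cells with PD-L1si and with Cnsi. In A498, 20 of 702 were past the threshold, 13 upward and 7 downward (2.85%, beside 2.45% of all genes tested, 1.81% upward and 0.645% downward, and 3.04% of those with a mean of at least 1 CPM). In 786-O none of 691 was, with edgeR and with DESeq2, although 51 had an unadjusted p under 0.05, beside 0.099% of all genes past the threshold, 0.0377% upward and 0.0613% downward, and 0.142% of those with a mean of at least 1 CPM. GASK1B-AS1 led in A498 at 2.05 (SE 0.248, adjusted p 2.82e-07), with GASK1B at 1.63. KLC4-AS1 had 0.99 (adjusted p 0.025), ZMIZ1-AS1 0.94 (adjusted p 5.21e-06), URB1-AS1 0.91 (adjusted p 0.0474) and ICAM4-AS1 0.78 (SE 0.0603) beside 0.85 for ICAM1. For ZMIZ1-AS1, IFNγ lowered the Cnsi libraries from 24.1, 25.9 and 26.0 CPM to 13.5, 11.8 and 14.1 CPM, whereas the PD-L1si libraries had 7.92, 8.49 and 11.2 CPM without and 9.11, 8.78 and 9.44 CPM with it.

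Downward, TROAP-AS1 (-1.19, adjusted p 0.000271), C1QTNF7-AS1 (-1.10, adjusted p 0.000222), NHSL1-AS1 (-0.77, adjusted p 0.0479) and SLC25A25-AS1 (-0.71, adjusted p 0.0124) had the lowest interactions. TROAP-AS1 stood at 2.66, 2.37 and 1.99 CPM with Cnsi and 1.99, 2.22 and 2.25 CPM with Cnsi and IFNγ, and at 4.10, 3.86 and 3.93 CPM with PD-L1si and 1.59, 1.61 and 1.58 CPM with PD-L1si and IFNγ. The fall with IFNγ was thus seen with PD-L1si, and the Cnsi groups overlapped.

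The last comparison set the IFNγ effect with Cnsi in 786-O against that in A498, in a fit of all 24 libraries. Of 681 antisense RNAs 214 differed past the threshold, 115 with the higher value in 786-O and 99 with the higher in A498 (31.4%, beside 28.4% of all genes tested, 15.1% and 13.2% in these directions, and 32.5% of those with a mean of at least 1 CPM). The largest differences toward A498, after HLA-DQB1-AS1, included IL20RB-AS1 (-4.01, SE 0.495, adjusted p 7.73e-09). It rose in A498 from 0.0403, 0.161 and 0.122 CPM to 0.575, 0.752 and 0.883 CPM (2.85) and fell in 786-O from 3.77, 3.43 and 3.40 CPM to 1.80, 1.15 and 1.41 CPM (-1.15). IL20RB, a receptor chain for interleukin 20 family cytokines, did the same (3.15 and -0.99). ITGA6-AS1 rose in A498 from 0.564, 0.723 and 0.324 CPM to 3.49, 3.12 and 2.87 CPM (2.69), with 2.70 for the integrin gene ITGA6, and had 0.42 in 786-O. For both the antisense RNA and the sense gene differed between lines in the same direction. A difference between the lines cannot be told apart from one between the sequencing runs.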

How the data were processed

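RNA-seq counts were analysed for 24 libraries of polyadenylated RNA. The authors made the deposited counts, whole reads per gene that were not normalized, from a stranded kit with featureCounts 1.6.3 on GENCODE 33 exons, after Trimmomatic 0.36.6 and alignment to GRCh38 with HISAT2 2.1.0 (versions from the submitters' processing notes). Total counts per library were between 19256316 and 30350461, and counting error is largest for RNAs near 1 CPM. Symbols, positions and overlaps came from GENCODE 44 on the same assembly, which matched 39148 of 39321 rows.

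Each line was fitted with edgeR 4.0.16 (R 4.3.3) by its quasi-likelihood test with robust estimates and TMM scaling over 12 libraries. Genes with 10 or more counts summed over a group entered, 20916 in A498 and 21209 in 786-O, and p-values were adjusted by Benjamini-Hochberg over all of them. The study's own test used protein-coding genes alone. Groups were compared for IFNγ with each siRNA, for siRNA with and without IFNγ, and for the interaction, and the IFNγ effect was compared between lines over 24 libraries (17999 genes). On simulated data for the IFNγ comparison with Cnsi, 97 of 100 genes changed by 1 on the log2 scale and 100 of 100 changed by 2 were called, with 5 false calls, in each line. The simulated spread was the same for every gene and was not taken from these libraries, and few genes were changed. These figures are therefore a check of the fit and not error rates for the antisense RNAs. Alternatives were DESeq2 1.42.0, RLE scaling, other filters, thresholds and a replicate block, and each library left out.

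The members and lists were chosen with earlier results of these data known. Antisense RNAs named were the 5 highest and 5 lowest log2 fold changes past the threshold for each line and comparison (4 and 4 for the interaction and the difference between lines), up to 15 past it with IFNγ in both lines, those past it in each siRNA comparison, the 5 highest mean levels, the 3 nearest the limit on either side, 4 opposite pairs a line, and list members where counts were small, with their sense genes. Others were chosen after their values were seen. A few antisense RNAs that the rule names are not reported here.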

Additional observations from a re-analysis of the deposited data

Results flagged for a closer look

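The IFNγ effect with Cnsi differed between the lines (786-O minus A498, log2 scale, edgeR's quasi-likelihood test over 24 libraries) for the antisense RNAs below, and line and instrument cannot be told apart. Toward 786-O, CDH13-AS2 differed by 2.95 (adjusted p 0.000318), with 3 counts without and 27 with IFNγ in 786-O and a log2 fold change of 0.17 in A498. PRKCQ-AS1 differed by 2.75 (adjusted p 4.31e-06) and SCN1A-AS1 by 2.50 (adjusted p 6.58e-08). MEF2C-AS2 differed by 2.61 (adjusted p 0.00011), from 0.827, 0.858 and 0.716 CPM to 2.11, 2.40 and 2.53 CPM in 786-O (1.68) with -0.94 in A498, not past the threshold. Toward A498, HLA-DQB1-AS1 differed by -6.86 (adjusted p 0.00026), a value that depends on the prior count because the Cnsi libraries of A498 hold no read. IL20RB-AS1 differed by -4.01 (adjusted p 7.73e-09). PRKAG2-AS1 differed by -2.43 (adjusted p 0.000471), from 0.121, 0.0402 and 0.122 CPM to 0.230, 0.466 and 0.441 CPM in A498 (2.09), with -0.33 in 786-O. ITGA6-AS1 differed by -2.28 (adjusted p 4.82e-07).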

How the results depend on the processing

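Of the alternative counts of antisense RNAs past the threshold, 200 were within 1.5 times the main count and 20 were not, and no called value of a named gene changed sign. With the adjusted p alone the counts were 403 (IFNγ with PD-L1si), 217 (siRNA under IFNγ), 179 (siRNA without IFNγ) and 39 (interaction) in A498, and 244 (IFNγ with Cnsi), 265, 78 and 68 for the first 4 comparisons in 786-O. With a log2 fold change over 1 they were 119, 107, 13, 16 and 3 in A498, 47, 45, 4 and 1 in 786-O, and 85 for the difference between lines. These counts differ because the threshold differs. The 786-O interaction gave 1 with no filter and between 0 and 2 with a library left out. Leaving out libraries gave 276 to 283 for IFNγ with Cnsi and 89 to 105 for siRNA under IFNγ in A498, and 129 to 147 and 18 to 26 in 786-O. Correlations between same-numbered replicates ran from -0.094 to 0.251 in A498 (mean 0.0498, beside -0.0249 for other numbers). In 786-O they ran from -0.319 to 0.267 (mean 0.028, beside -0.0136). In A498 7 of 12 libraries were closest to their own number, and in 786-O 4 of 12. These values do not settle whether the numbers mark a pairing. With the replicate block the counts were 281, 264, 106, 75 and 24 in A498, 142, 143, 23, 20 and 0 in 786-O, and 216 for the difference. Depth limits the precision of RNAs near 1 CPM.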
